A study of Capra hircus with 2 samples.

Results

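Hub genes were the genes that the authors' table of predicted targets paired with 40 or more distinct miRNAs. For each gene identifier the distinct miRNA names were counted, and 187 of 7608 genes (2.46%) reached this number. These 187 genes held 8773 of the 87779 predicted pairs of a miRNA and a gene (9.99%). Membership rests on sequence prediction and on the authors' choice of changed miRNAs, and the abundance of the genes' own transcripts was not measured here. The direction of each miRNA came from a separate table with its normalized expression in both endometrial libraries.

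Small RNA was sequenced from the endometrium of 24-month-old multiparous Xinong Saanen dairy goats whose estrus had been synchronized and which were mated naturally. The pre-receptive library (P) was made from goats on day 5 of gestation and the receptive library (R) from goats on day 15. RNA of several goats was combined into pools for each phase and sequenced repeatedly. The files hold 1 value per miRNA and phase, here called a library, so there were no replicates and no measure of the spread between goats or pools. Normalized expression (NE) is the reads of a miRNA divided by 1 size factor per library, and 1 read was worth 0.860 NE in R and 1.16 NE in P. Among the 142 names with predicted targets, 25 had a value in 1 or both libraries that was not a whole number of reads (by more than 0.02 reads, where the values taken as whole were off by at most 0.0058 and the others by at least 0.171), and for the intervals reads were rounded to the nearest whole number, with ties upward. Reads of known miRNAs came to 1880606 for R and 4032588 for P. Ratios divide the NE of R by that of P and carry 95% exact (Clopper-Pearson) intervals. The library labels are those of the known miRNA and differential expression tables. The authors' table of candidates gives the values of all 22 candidates (names starting with PC) with predicted targets under exchanged labels. With the read worths of the known miRNA table, the R and P values of these 22 candidates in the differential expression table were whole numbers of reads by the same tolerance for 22, and with exchanged worths for 0, so candidates and known miRNAs there carry the same labels. The values of these files alone do not settle which tables label the libraries correctly. If the table of candidates did, every direction given here would turn. By RT-qPCR, a separate measure of single miRNAs, the paper reports most but not all of those it measured as higher in receptive endometrium. That is the direction of the labels used here. The candidates that the paper prints among its changed miRNAs carry these labels as well, such as PC-5p-20799_45 with 75.67 NE in R and 2.33 in P. The intervals of ratios cover the counting error of reads only. They may be too narrow even for that, because amplified reads that carry no molecular identifier may stem from 1 molecule.

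A miRNA guides a silencing complex to messenger RNAs, mostly through pairing of its seed, the bases near its 5′ end, with sites in the 3′ untranslated region. Messengers with long untranslated regions can carry sites for many miRNAs, and miRNAs that share a seed are usually predicted for much the same genes. In the endometrium, miRNAs are known from the luminal and glandular epithelium, the stroma and the muscle of vessels and the uterine wall, and their levels change as the tissue becomes receptive to the embryo.

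The sequences that recurred most among the hub genes are given 5′ to 3′ as deposited, with T for U and the seed (bases 2 to 8) in capitals. Suffixes to a name are the authors' marks for added, trimmed or substituted bases, and names starting with PC are candidates predicted by the authors. The first set holds the miRNAs of every seed predicted for at least 50% of the hub genes, in order of recurrence.
hsa-miR-153-5p_L+1_2ss15G-16TC: gTCATTTTtgtgatctgcagct
bta-miR-204: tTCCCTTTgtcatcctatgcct
hsa-miR-204-5p: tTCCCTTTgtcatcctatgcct
bta-miR-15b: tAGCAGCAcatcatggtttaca
hsa-miR-26b-3p: cCTGTTCTccattacttggctc
hsa-miR-335-3p: tTTTTCATtattgctcctgacc
PC-3p-16127_59: aAGGAAAAtgttcttatttt
cfa-miR-145: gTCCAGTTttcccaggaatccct
bta-miR-677_R+1: cTCACTGAtgagcagcttctgact
PC-3p-215602_2: tGCAAAGAggttggatcgagt
aja-miR-143_1ss22GT: tGAGATGAagcactgtagctct
bta-miR-31_R+2: aGGCAAGAtgctggcatagctgt
mmu-miR-22-5p_R-1: aGTTCTTCagtggcaagcttt

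The second set shows families in which several names share a seed, because such names add to the count of a hub gene together. The members of the miR-34 and miR-449 seed and of the miR-181 seed differ outside the seed, whereas the miR-10a and miR-10b names hold the same sequence.
hsa-miR-34a-5p: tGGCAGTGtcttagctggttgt
hsa-miR-34c-5p: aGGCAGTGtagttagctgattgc
hsa-miR-449a: tGGCAGTGtattgttagctggt
oar-miR-181a: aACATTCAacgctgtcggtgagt
mdo-miR-181b-5p: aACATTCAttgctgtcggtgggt
hsa-miR-181c-5p_R+1: aACATTCAacctgtcggtgagtt
oar-miR-10a_R+1_1ss12TA: tACCCTGTagaaccgaatttgt
oar-miR-10b_L+1R-1: tACCCTGTagaaccgaatttgt

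Low recurrence was not limited to sequences rich in G and C. hsa-miR-100-5p, with 50% A and T, was predicted for 4 hub genes, and hsa-miR-190a-3p_L+1, with 77.3%, for 21. A last set, rich in G and C, recurred little among the hub genes and is shown for contrast.
bta-mir-2887-2-p5_1ss7AC: cGGGACCCggggcgcggc
PC-5p-26648_38: tCCCGGGGccgagggagcc
PC-5p-91245_7: cGCGCGCGgggcccgggg

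The hub genes formed the upper tail of a continuous distribution. Genes of the table had a median of 8 miRNAs, with a range of 1 to 68. Among the hub genes the median was 45 miRNAs. There was no gap at the minimum, as 23 genes had exactly 40 miRNAs and 19 genes had 39. The 142 miRNA names comprised 136 distinct sequences and 125 distinct seeds, and each of the 6 pairs of names with an equal sequence had exactly the same predicted genes. A hub gene was therefore predicted for a median of 43 sequences (range 36 to 64) and 38 seeds (range 31 to 60). Of the 8773 hub pairs, 1200 (13.7%) were names in excess of the number of seeds. With each seed counted once, 82 genes reached 40. Without the candidates 84 genes did so, and with only names of at least 10 reads in 1 library 69 genes did so.

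**Figure D1:**
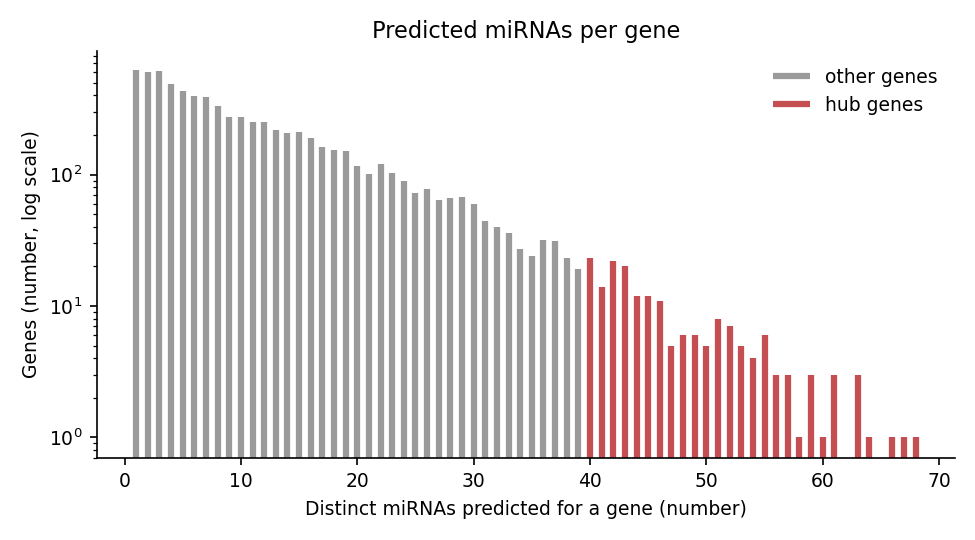
Genes (number, log scale) by the number of distinct miRNAs predicted for them. The 187 hub genes with 40 to 68 miRNAs are the right end of a distribution with no gap at the minimum.

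Most miRNAs predicted for the hub genes had a higher NE in R, in nearly the proportion of the whole table. Of the 142 names with predicted targets, 109 (76.8%) were more than 2-fold higher in R and 33 (23.2%) more than 2-fold lower, since the authors predicted targets only for changed miRNAs. Among all 359 names of the differential expression table with a value above 0 in both libraries, 30.6% were more than 2-fold higher and 9.19% more than 2-fold lower, and among the 447 such names of the known miRNA table these shares were 22.4% and 16.1%. In the hub genes, 6565 of 8773 pairs (74.8%) were with a higher miRNA and 2208 (25.2%) with a lower one. Pairs of all other genes were with a higher miRNA in 77.3%. The hub genes thus lay 2.44 percentage points under the other genes and close to the names themselves.

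Every one of the 187 hub genes had more higher than lower miRNAs, as did 98.0% of the 3465 genes with 10 or more miRNAs. A hub gene had a median of 34 higher miRNAs (range 26 to 51) and 12 lower miRNAs (range 4 to 22). The share of higher miRNAs per hub gene had a median of 75.0% and ran from 62.7% to 90.0%. It was above the 76.8% of all names in 65 hub genes and under it in 122. Genes just outside the minimum, with 39 miRNAs, had a median share of 74.4% (61.5% to 87.2%), and those just inside, with 40 miRNAs, one of 77.5% (65.0% to 90.0%).

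**Figure D2:**
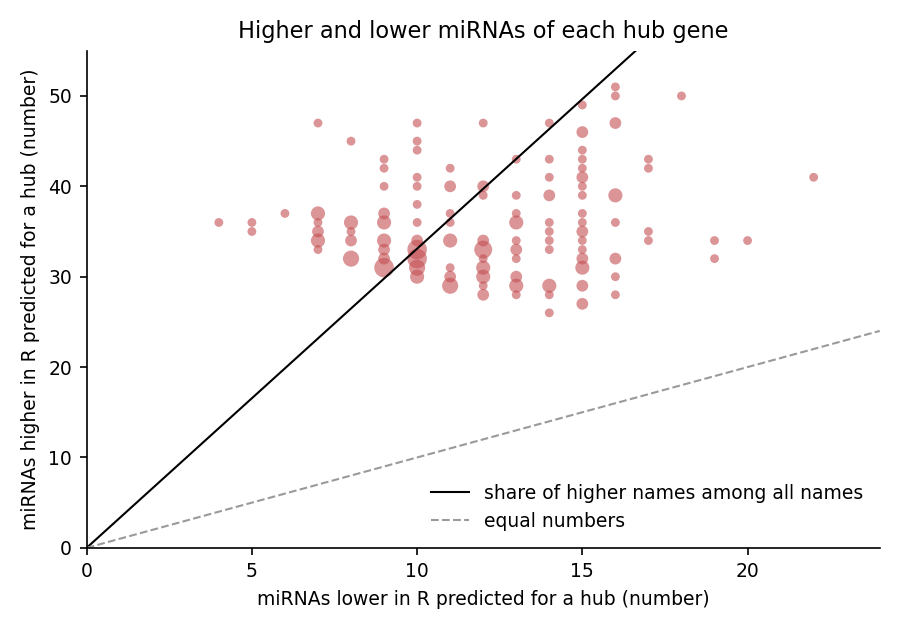
Number of miRNAs higher in R against the number lower in R for each of the 187 hub genes, with larger points where several hub genes coincide. All points lie above the dashed line of equal numbers and scatter around the solid line, the 76.8% of higher names in the whole table.

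Part of this direction rested on few reads. Among the 142 names, 32 had an interval of the ratio that included 1, all of them higher in R, and they made up 24.6% of the hub pairs and 25.9% of all pairs. With these names left out, a choice made after the data were seen, 66.6% of hub pairs and 69.0% of all pairs were with a higher miRNA, and 183 of 187 hub genes had more higher than lower miRNAs. The 22 candidates were all higher in R and made up 14.7% of the hub pairs, and without them, likewise chosen after the data were seen, 70.5% of hub pairs were with a higher miRNA. Scaling also bore on the direction. Setting the known miRNAs to equal totals added 1.54 to every log2 ratio, scaling to clean reads added 0.78, and setting the median log2 ratio to 0 moved it by -0.42. Every name of the target table had an absolute log2 ratio of at least 1.005, so the last 2 scalings could turn none of them, and the first made 16 lower names higher. The higher share was then 86.2% for hub pairs and 86.7% for all pairs.

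The miRNA that recurred most among the hub genes was among the least abundant. The variant hsa-miR-153-5p_L+1_2ss15G-16TC was predicted for 125 hub genes (66.8%) and for 14.5% of all genes. It had an NE of 5.16 in R and 1.16 in P, equal to 6 reads and 1 read, and its ratio of 4.45 had an interval of 0.538 to 204.1. At this depth no difference between the libraries was detectable for it.

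The following ranks held better measured miRNAs. miR-204, known from epithelia of the eye and other tissues, was listed under 2 names with the same sequence, and both were predicted for the same 114 hub genes (61.0%). The name bta-miR-204 had an NE of 2120 in R and 608 in P, a ratio of 3.49 (3.17 to 3.84), and hsa-miR-204-5p had 2116 and 607. In reads these were 2466 and 2461 in R and 523 and 522 in P, and whether the same reads were listed under both names was not tested. bta-miR-15b, of a family known for restraining the cell cycle and BCL2, was predicted for 112 hub genes (59.9%), with an NE of 274 in R and 125 in P and a ratio of 2.19 (1.75 to 2.74). hsa-miR-26b-3p was also predicted for 112 hub genes, at 44.7 NE in R and 17.4 in P, a ratio of 2.56 (1.42 to 4.90).

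Of the other higher names in the leading 10, PC-3p-16127_59 was predicted for 108 hub genes (57.8%) but only 9.95% of all genes. Its NE was 45.6 in R and 12.8 in P, a ratio of 3.56 (1.84 to 7.56). bta-miR-677_R+1 and PC-3p-215602_2, predicted for 103 and 98 hub genes, had at most 9 reads in either library. Their intervals, 0.493 to 25.5 and 0.922 to 292, included 1. By RT-qPCR the paper reports PC-3p-215602_2 as lower in R. The largest excess of the share of hub genes over the share of all genes belonged to the miR-153-5p variant, with 52.3 percentage points, followed by PC-3p-16127_59 with 47.8, hsa-miR-335-3p and both miR-204 names with 46.5 each. All 142 names had a larger share of hub genes than of all genes, which follows from how hub genes were chosen.

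**Figure D3:**
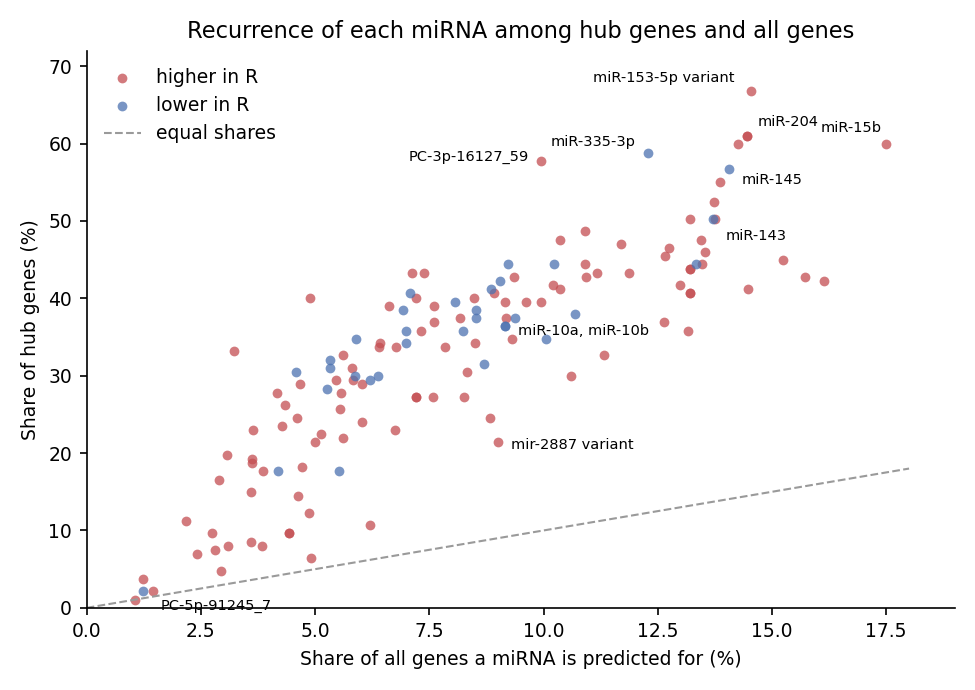
Share of the 187 hub genes (%) against the share of all 7608 genes (%) for each of the 142 miRNA names, coloured by direction in R. Names predicted for many genes were predicted for many hub genes, and miR-335-3p and PC-3p-16127_59 lie high for their share of all genes.

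Of the 12 most recurrent seeds, 3 belonged to miRNAs lower in R, and they included the most abundant name of the table. hsa-miR-335-3p, from a miRNA gene within an intron of MEST, was predicted for 110 hub genes (58.8%). Its NE was 43.0 in R and 199 in P, 4.63-fold lower in R (3.36 to 6.47). cfa-miR-145 and aja-miR-143_1ss22GT come from a common transcript known from smooth muscle and stromal cells. miR-145 was predicted for 106 hub genes (56.7%), with an NE of 2123 in R and 11339 in P, 5.34-fold lower (5.11 to 5.58). miR-143 was predicted for 94 hub genes (50.3%), with an NE of 289634 in R and 1866274 in P, 6.44-fold lower (6.42 to 6.47). These 3 miRNAs stayed lower in R with the known miRNAs at equal totals.

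The next lower names were each predicted for 83 hub genes (44.4%). bta-miR-320a had an NE of 2878 in R and 9040 in P, 3.14-fold lower (3.02 to 3.27). With the known miRNAs at equal totals it stayed lower only narrowly, as its log2 ratio of -1.65 met a shift of 1.54. hsa-miR-143-5p_1ss22TA, the opposite arm of the miR-143 hairpin, had 238 and 577, 2.42-fold lower (2.09 to 2.82), and turned higher at equal totals, as did the equally recurrent mdo-miR-181b-5p (3170 and 7214 NE). Lower names were predicted for a median of 68 hub genes and higher names for a median of 63. Across the 142 names, which share both libraries, the share of hub genes had a Spearman correlation of -0.15 with the log2 ratio and of 0.88 with the share of all genes.

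With the seed taken as bases 2 to 8, those that recurred most had single names. At least 50% of the hub genes were reached by 12 of the 125 seeds, 9 higher and 3 lower in R, and the seed of miR-204 was the only one of these with more than 1 name. No seed reached 75% of the hub genes. The number depended on the minimum that defines a hub gene, with 1 seed at a minimum of 30 and 33 seeds at 50. With bases 2 to 7 as the seed, 16 seeds reached 50% of the hub genes, and 6 of these had 2 names. There were 15 seeds with 2 or more names, of which 10 had only higher names, 4 only lower names and 1 both. Each hub gene was predicted for 2 or more names of the same seed in a median of 5 families (range 2 to 10).

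The multi-name families were chosen for naming after their values were seen. The family of miR-34a, miR-34c and miR-449a, known from the differentiation of multiciliated cells, came closest to miR-204. It reached 93 hub genes (49.7%) against 14.9% of all genes, and 77 hub genes were predicted for all 3 names. hsa-miR-34c-5p had an NE of 2778 in R and 1090 in P, hsa-miR-34a-5p had 2522 and 830, and hsa-miR-449a had 1843 and 16.3. Their ratios were 2.55 (2.37 to 2.74), 3.04 (2.80 to 3.30) and 113 (67.3 to 207), so that miR-449a differed far more than its seed partners while adding to the same hub genes.

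Other families higher in R followed. The miR-22-3p seed reached 87 hub genes (46.5%), with a summed NE of 72253 in R and 23825 in P. The seed of miR-132 and miR-212-3p, which are processed from a common transcript, reached 86 (46.0%) against 7.53% of all genes, at 291.5 and 123 NE. The 2 names of miR-671, of equal sequence, reached 82 (43.9%) on 8.60 and 2.32 NE, and the interval of each ratio included 1. The epithelial miR-141-3p seed reached 81 hub genes (43.3%) at 30011 NE in R and 6044 in P. The seed of miR-200c and miR-429, which together with miR-141 is known to repress the ZEB factors and to maintain the epithelial state, reached 78 (41.7%) at 1605 and 320 NE.

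Among families lower in R, the seed of miR-181a, miR-181b and miR-181c reached 85 hub genes (45.5%) against 10.1% of all genes, with a summed NE of 28510 in R and 73246 in P, and turned higher with the known miRNAs at equal totals. The seed of miR-26a and miR-26b reached 70 (37.4%) at 202077 and 454591 NE and turned likewise. That of miR-10a and miR-10b, encoded within the HOX clusters, reached 68 (36.4%) at 314600 and 1375349 NE and stayed lower at equal totals. The 2 miR-10 names hold the same sequence, the miR-10a name through a substituted base in the authors' marks. Their sum may count the same reads more than once. The muscle miR-133 seed reached 56 (29.9%) at 145.3 and 3623 NE, the family with the largest difference among the 15. Names of the same seed but different sequence had predicted genes that overlapped by 0.76 to 0.98 (shared genes over genes of either name).

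Many hub genes combined miRNAs of opposite direction. miR-204 and miR-335-3p were predicted together for 75 hub genes (40.1%) and for 3.76% of all genes. Of the 114 hub genes of miR-204, 7 were predicted for none of miR-335-3p, miR-145 and miR-143, as were 518 of the 1100 genes predicted for miR-204 in the whole table. Genes chosen for many miRNAs are expected to combine more of them. miR-143 or miR-145 was predicted for 148 hub genes (79.1%) and 24.4% of all genes, and both for 52 (27.8%) and 3.36% of all genes. Any name of miR-141, the miR-200 names or miR-429 was predicted for 155 hub genes (82.9%) and 29.5% of all genes, and 119 hub genes (63.6%) combined such an epithelial miRNA, higher in R, with miR-143 or miR-145, lower in R. Over all genes this combination had a share of 10.8%.

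The miRNAs of the hub genes had seeds richer in A and T than those of other genes. The mean A and T content of the seed over pairs was 48.2% in genes with 1 to 9 miRNAs, 48.9% with 10 to 19, 51.0% with 20 to 29, 52.1% with 30 to 39 and 53.8% in the hub genes. Over the same classes the share of pairs with a higher miRNA went from 78.7% to 74.8%. Both trends were gradual, and the hub genes were their last step rather than a group apart. Lower names had a mean seed content of 57.6% A and T and higher names 49.3%. Across the 142 names, the share of hub genes divided by the share of all genes had a Spearman correlation of 0.78 with the A and T content of the seed, a description over names that share bases and libraries. Taken singly, the share of hub genes had a correlation of 0.19 with this content and the share of all genes one of -0.13. Base composition of the genes was not analysed here.

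**Figure D4:**
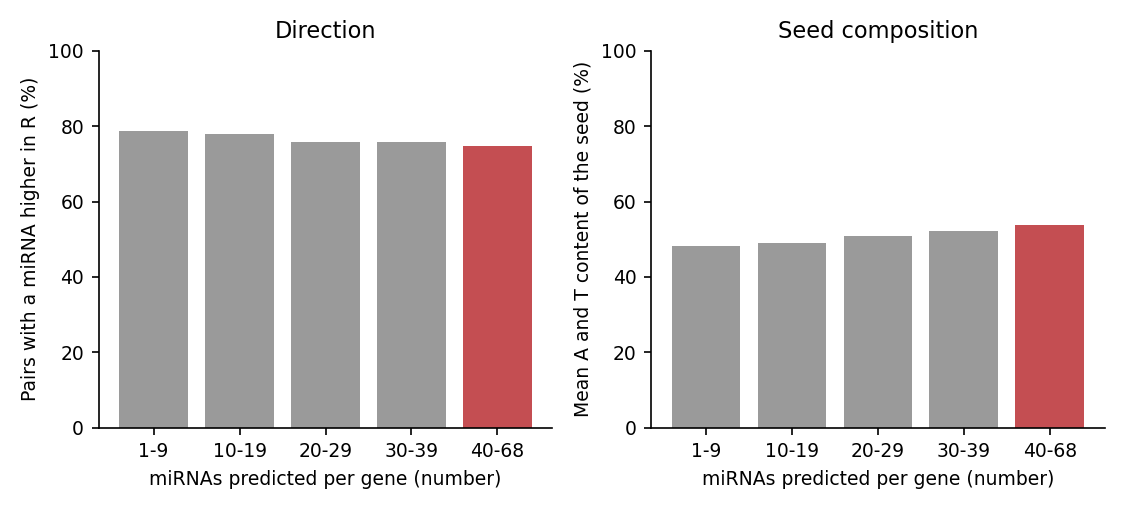
Share of pairs with a miRNA higher in R (%, left) and mean A and T content of the seed over pairs (%, right) for genes grouped by their number of miRNAs, with the hub genes in red. From the first class to the hub genes the left bars go from 78.7% to 74.8% and the right bars from 48.2% to 53.8%.

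Of the 5 miRNAs with the most genes among those under 25% of the hub genes, 4 had seeds poor in A and T. Among names predicted for under 25% of the hub genes, bta-mir-2887-2-p5_1ss7AC had the most predicted genes, 685, and 40 hub genes (21.4%). bta-miR-6123_R+1 had 672 genes and 46 hub genes, mmu-miR-503-5p had 514 and 43, PC-5p-26648_38 had 471 and 20, and PC-3p-247920_2 had 458 and 45. The seed of PC-3p-247920_2 had 71.4% A and T, and those of the other 4 had at most 28.6%. All 5 had the higher NE in R, but the intervals of bta-mir-2887-2-p5_1ss7AC (0.493 to 25.5) and PC-3p-247920_2 (0.414 to 174.9) included 1, and none had more than 53 reads in a library. By RT-qPCR the paper reports PC-5p-26648_38 as lower in R. Under the same limit of 25%, the next names were PC-5p-5933_158 (427 genes), cfa-miR-196b (420) and hsa-miR-34c-3p (390). Their seeds had 57.1%, 57.1% and 71.4% A and T, so the low content depended on where the list ended. PC-5p-91245_7, with a sequence of 18 bases and no A or T, recurred least, with 2 hub genes among 81 genes. Its share was 1.07% of hub genes and 1.06% of all genes.

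Summed abundance gave the opposite direction to the number of miRNAs. The median log2 ratio over the miRNAs of a hub gene had a median of 1.61 and ran from 1.15 to 2.02 over the hub genes, and the median over all 142 names was 1.78. When the NE of all miRNAs predicted for a hub gene was summed, the median sum was 388967 in R and 1909287 in P. The log2 ratio of the sums had a median of -2.02 and a range of -2.60 to 1.95, and 167 of 187 hub genes (89.3%) had the lower sum in R. Over all 142 names the sums were 1007804 NE in R and 3904505 in P, a log2 ratio of -1.95, so that the hub genes again lay near the whole table. Higher names contributed little to these sums, with 150074 NE in R and 43431 in P against 857730 and 3861074 for the lower names. Names that share a sequence may count the same reads more than once, and with each sequence summed once the median log2 ratio was -1.99.

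The sums followed the presence of a few abundant lower miRNAs. miR-143 alone made up 47.8% of the summed NE of the 142 names in P and 28.7% in R. The miR-10b and miR-10a names, of equal sequence, were next in abundance. The name oar-miR-10b_L+1R-1 had an NE of 160642 in R and 718168 in P, 4.47-fold lower (4.45 to 4.49), and oar-miR-10a_R+1_1ss12TA had 153959 and 657181, 4.27-fold lower (4.25 to 4.29). In the 94 hub genes predicted for miR-143 the log2 ratio of the sums had a median of -2.23 (range -2.60 to -1.89). In 35 hub genes with miR-10 and without miR-143 it had a median of -1.77, and in 18 with miR-26a and neither of these, of -0.90. The other 40 hub genes had a median of 0.00 and a range of -1.30 to 1.95, and all 20 hub genes with the higher sum in R were among them. Without miR-143 the median over the 187 hub genes was -0.88, and with the known miRNAs at equal totals it was -0.48. The sum was lower in R for 140 hub genes without miR-143 and for 129 at equal totals.

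**Figure D5:**
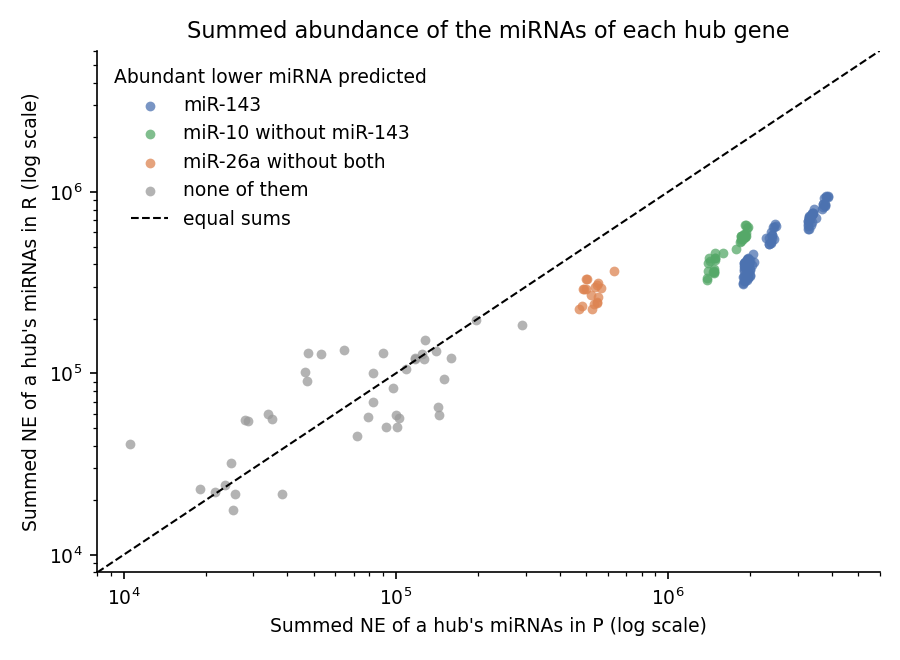
Summed NE of all miRNAs predicted for each hub gene in R against that in P (both log scale), coloured by the abundant lower miRNAs predicted for the gene. Hub genes with miR-143, miR-10 or miR-26a lie under the dashed line of equal sums, and 20 of the 40 hub genes without them lie above it.

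Marker miRNAs of several cell types differed between the libraries. Their shares of hub genes, given here and below for muscle, immune and erythroid markers, follow largely from how hub genes were chosen. A gene chosen for many miRNAs is expected to hold at least 1 name of almost any list, the more so the longer the list. These shares therefore show nothing particular to the markers. Of 11 epithelial markers 10 were measured, all but miR-200b, and their 17 names summed to 38636 NE in R and 6997 in P, with hsa-miR-141-3p_R-1 the most abundant (28337 and 5791). In the target table, 12 epithelial names were all higher in R, and 185 hub genes (98.9%) were predicted for at least 1 of them, against 49.2% of all genes. Markers of ciliated epithelium, measured for 4 of 5 and without miR-449c, summed to 4872 NE in R and 1234 in P, led by hsa-miR-34c-5p. Their 3 names in the target table, all higher, reached 114 hub genes (61.0%) and 18.4% of all genes.

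Muscle markers went the other way. The smooth muscle markers miR-143 and miR-145, with 5 names, summed to 292431 NE in R and 1879528 in P, nearly all of it aja-miR-143_1ss22GT, and their 3 target-table names reached 165 hub genes (88.2%) and 30.4% of all genes. Striated muscle markers, measured for 4 of 5 and without miR-206, summed to 211 NE in R and 3796 in P, led by oar-miR-133_L+1 (144.9 and 3558), and their 5 lower names reached 153 hub genes (81.8%) and 23.4% of all genes. Of these 5, hsa-miR-499a-5p turned higher with the known miRNAs at equal totals. Immune markers, measured for 4 of 5 and without miR-150, summed to 7811 NE in R and 5218 in P, led by cgr-miR-142-5p_L-2R+1 (5689 and 2524). Without the 2 names of miR-142 the other 4 immune names summed to 1698 in R and 2508 in P, the opposite direction. The 2 immune names of the target table, both arms of miR-142 and higher in R, reached 74 hub genes (39.6%) and 7.53% of all genes. Erythroid markers, with all 3 measured, summed to 6107 NE in R and 9425 in P, led by cgr-miR-486-5p (5052 and 8073), and had no name in the target table. The lower sums in R of the erythroid markers and of the other 4 immune names depended on scaling. Scaling to clean reads, or setting the known miRNAs to equal totals, would make both sums higher in R. In pooled tissue, fewer cells of a type and less RNA per cell cannot be told apart, and the part of cell composition in the directions of the hub genes' miRNAs was not tested.

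The overlap of miRNAs between hub genes was largest within small groups. Over the 17391 pairs of hub genes, the shared miRNAs divided by the miRNAs of either gene had a median of 0.24 and a range of 0.05 to 0.91. In 14 pairs this overlap was 0.5 or more, and in all 14 the identifiers lay within 10 of each other. Such pairs are not independent hub genes, and whether they are neighbouring or overlapping genes or transcripts of 1 gene was not tested. Counting each group joined by such overlaps once, a choice made after the data were seen, left 179. The same 7608 identifiers fill the gene and transcript columns of the target table, and the paper describes its 7608 predicted targets as annotated transcripts. An identifier counted as a gene here may therefore stand for a transcript. The files pair the identifiers with no gene names, and 0 of 7608 identifiers were found in the RefSeq gene table of the goat assembly ARS1.2. The gene with the most miRNAs had the identifier 359517084, with 50 higher and 18 lower, followed by 359528090 with 51 and 16. The highest shares of higher miRNAs belonged to 359519178 (36 of 40, 90.0%) and 359526707 (36 of 41, 87.8%). The lowest belonged to 359525808 (32 of 51, 62.7%) and 359532499 (34 of 54, 63.0%). Summed NE was lower in R for all 6 of these genes, including the gene with 90.0% higher miRNAs, whose sums were 406031 in R and 1900954 in P.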

How the data were processed

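Per the file headers and the methods, the authors matched filtered reads to miRBase and the genome, and deposited a normalized signal (NE) per miRNA and library. They deposited predicted targets for the changed miRNAs, kept where TargetScan and miRanda both gave them. Their ratios, log2 ratios and P-values stand beside the NE and were not used. The values behaved as reads divided by 1 size factor per library, with parts of a read for 25 of the 142 names, whereas the methods state reads relative to the total of clean reads. Reads were recovered as NE over the worth of 1 read (the most frequent value above 0) and rounded, with ties upward. The table of candidates was used only to compare its library labels. In NE, 3 reads came to 2.58 for R and 3.49 for P. The Transcript ID column was filled in 7608 of 87779 rows and was not used to pair genes.

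Distinct miRNA names were counted per gene identifier, and direction was the sign of the log2 ratio of NE. With 1 library per group no test was made. A call was a difference of more than 2-fold with NE above 0 in both libraries. The miRNAs named were the 10 predicted for the most hub genes, the 5 such lower ones, families of 2 or more names at 50% of the hub genes, the 5 with the largest excess, the 5 with the most genes among those under 25% of the hub genes, and the 3 most abundant. The hub genes named were the 2 with the most miRNAs and the 2 with the highest and lowest higher share. bta-miR-31_R+2, mmu-miR-22-5p_R-1, PC-5p-91245_7, the miR-26 names, the marker names and the other families were added after their values were seen. The members and lists were chosen with earlier results of these data known. Counting and intervals were tested on simulated data. Alternatives were other minimums, scalings, read filters, a pseudocount of 1, and counting by sequence or seed. Computations ran in Python 3.11.15 with scipy 1.17.1, pandas 2.3.3 and numpy 2.4.6, and figures were drawn with matplotlib 3.10.9.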

Additional observations from a re-analysis of the deposited data

How the results depend on the processing

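The number of hub genes depended most on the definition. It was 523 at a minimum of 30 names and 56 at 50, 82 with each seed counted once, and 69 with names of at least 10 reads in 1 library. Without the candidates it was 84. The Transcript ID column gave 0, but it holds each identifier in 1 row only and so offers no count of miRNAs per gene. With the library labels of the candidate table, which exchange R and P, the higher share of hub pairs was 25.2%, and every direction turned. The RT-qPCR that the paper reports ran mostly in the direction of the labels used here. Under the other alternatives the higher share stayed above 50%. It was 86.2% with the known miRNAs at equal totals, 69.3% with names of at least 10 reads in 1 library, 67.3% with names of more than 3 reads in both libraries, 66.6% with names whose interval excludes 1 and 70.5% without the candidates. These last 3, the exchanged labels, the count of 84 and the count of 179 with overlapping hub genes joined were chosen after seeing the data.

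The median log2 ratio of a hub gene's miRNAs was 1.37 with a pseudocount of 1, 3.15 with the known miRNAs at equal totals, 2.39 scaled to clean reads and 1.19 with the median set to 0. Under the same 3 scalings the log2 ratio of the sums was -0.48, -1.23 and -2.43, and without miR-143 it was -0.88. Calls in the differential expression table were 110 higher and 33 lower as deposited, 286 and 10 at equal totals, 200 and 16 by clean reads, and 84 and 69 with the median set to 0. Seeds reaching 50% of the hub genes numbered 12, against 1 at a minimum of 30, 33 at a minimum of 50, and 0 when 75% was required. Beyond the changes that a definition or scaling makes by its construction, the cause was not tested. Depth limits the rarest names, as 48 of 142 had at most 3 reads in a library.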
